A study of Mus musculus with 14 samples.

Results

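Brain RNA from mice at E19.5, an embryonic day close to birth, was compared between wild type and KO2, a line from which 2 imprinting control regions, the H19-DMR and the IG-DMR, had been deleted. Of the 14 brain libraries of the series, 4 make up this comparison, 2 from KO2 and 2 from wild type. Genes entered when they reached 1 FPKM in at least 2 of the 4 libraries, and rows whose names begin with Mir, Snor or Scarna were left out, which kept 13382 of 23375 genes. FPKM, the unit of every level below, is the number of sequenced fragments scaled to transcript length and to library size. A further 10 libraries served only as named below. Of these, 2 were E19.5 KO7, a line without the DMRs at Igf2r and Grb10, at Peg3, Snrpn and Kcnq1, and at Nespas and Gnas. Another 4 were adult KO2, with the same deletions as E19.5 KO2, and adult wild type of the first set (2 each). The remaining 4 (adult KO3, which lacks the Rasgrf1-DMR as well, and the second adult wild-type set) entered alternative fits only. The labels name no strain and no sex, and do not say whether the 2 libraries of a group came from separate animals. Every p-value therefore measures the spread between these libraries, which may be technical. By general knowledge of this study rather than by its labels, the deleted haploid stem cells served to make KO2 embryos from a pair of maternal genomes. If so, the deletions and the parental origin of the genomes cannot be told apart in any value below.

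An imprinting control region carries DNA methylation on the copy inherited from only one parent, and this mark decides which parental copy of the neighbouring genes is read. The H19-DMR separates Igf2, a growth factor read from the paternal copy, from H19, a non-coding RNA read from the maternal copy. The IG-DMR does the same for the paternally read genes Dlk1, Rtl1 and Dio3 and the maternally read RNAs Meg3, Rian and Mirg. In rodents the last days before birth are also when the production of cortical neurons ends, astrocytes multiply and mature, and the first oligodendrocytes of the hindbrain begin to make myelin.

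The E19.5 libraries each held 12990 to 13385 genes at 1 FPKM or more, and Pearson's r across genes within a group was 0.989 to 0.990. The absolute read depth is unknown. Steps in the low values give relative depth within a group only: wild-type replicate 2 was 1.40 times as deep as replicate 1, and KO2 replicate 2 was 1.16 times as deep as replicate 1. Such steps were not sharp between groups (1.36 to 2.39% of low genes in the fullest bin, against 5.72 to 6.97% within groups), so depth was not compared between groups. Libraries also differed in markers of brain regions and of muscle, from lists put together after the values were seen. The 39 Hox genes, which mark hindbrain and spinal cord, summed to 0.0979 and 0.837 FPKM in wild type, against 7.42 and 26.9 in KO2, and 1.77 and 0.0352 in KO7. Markers of midbrain and hindbrain summed to 6.41 FPKM in wild-type replicate 1 and 34.7 in replicate 2, against 35.3 and 44.7 in KO2. En1, En2 and Pcp2, which define midbrain, hindbrain and Purkinje cells, were at 0.0349, 0 and 0 FPKM in wild-type replicate 1. The 15 genes of cortical projection neurons summed to 757 and 557 FPKM in wild type, against 441 and 465 in KO2. The 12 skeletal muscle genes summed to 8.24 and 9.34 FPKM in wild type, but to 63.5 in KO2 replicate 1 and 18.3 in replicate 2. Xist, the RNA of the inactive X chromosome, was at 117 and 106 FPKM in wild type, 1.498 in KO2 replicate 1 and 84.0 in replicate 2. The Y-linked genes Ddx3y, Kdm5d and Uty were listed at 0 in all 4 libraries, so the sex chromosomes of KO2 replicate 1 are in doubt. Xist cannot be told apart from its antisense partner Tsix, since the use of strand is not given. The part of these differences in the results below was not tested. Whether a marker is low because a cell type is rarer or because each cell holds less of its RNA cannot be told apart in such bulk samples.

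**Figure D1:**
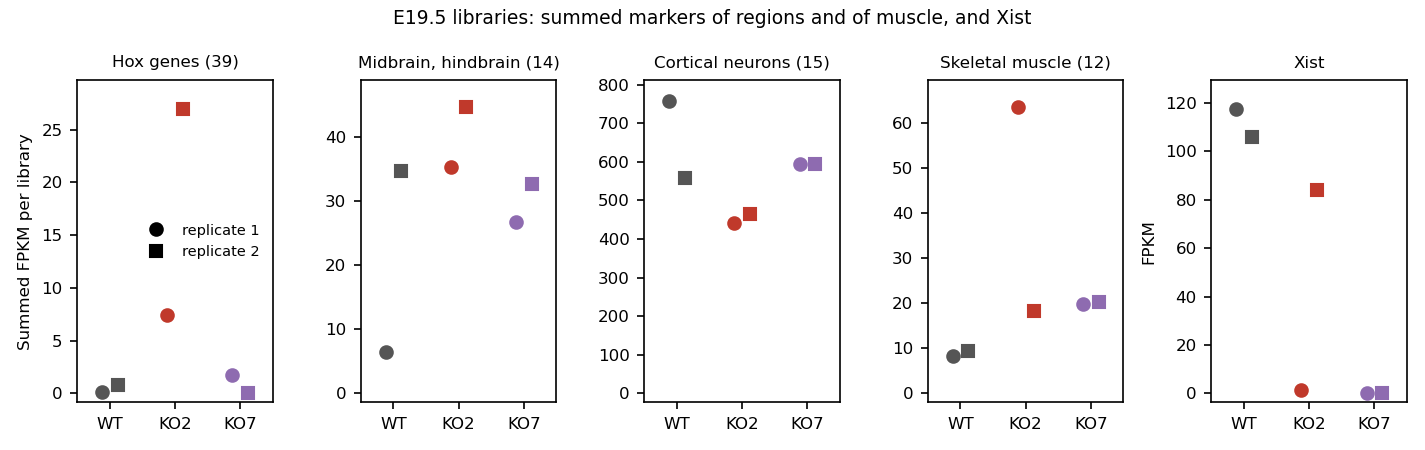
Summed FPKM of 4 marker lists and FPKM of Xist (vertical axes, linear) in each of the 6 E19.5 libraries, with replicate 1 as circles and replicate 2 as squares. Hox genes are highest in both KO2 libraries (7.42 and 26.9), wild-type replicate 1 is lowest for midbrain and hindbrain (6.41), and KO2 replicate 1 is highest for muscle (63.5).

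In KO2 at E19.5, 331 genes were higher and 217 lower than in wild type, 4.1% of the 13382 tested (2.47% higher and 1.62% lower). The test was limma on log2(FPKM + 1) with a Benjamini-Hochberg adjusted threshold of 0.05, and 3239 genes had an unadjusted p under 0.05. On this scale, which understates changes of low genes, 92 of the genes called higher rose by more than 1 and 17 of those called lower fell by more than 1. The median change over all tested genes was -0.01, and 95% of genes lay between -0.51 and 0.70. Of all tested genes 48% lay above wild type and 52% below. These shares, with the 2.47% called higher and 1.62% called lower, are the background of each list count below. A gene below 1 FPKM in both wild-type libraries entered through KO2 only and could only lie above wild type. Some list members below entered in this way. The number of calls rested most on wild-type replicate 1. Without it 21 genes were higher and 7 lower. The split was 71 and 37 when KO2 replicate 1 was left out, 111 and 48 for KO2 replicate 2, and 205 and 88 for wild-type replicate 2. In each of these leave-outs 18 of the 331 rises and 5 of the 217 falls were called. Below, a call that held without any 1 of the 4 libraries is one made in all of these leave-outs. With all 14 libraries in the fit and adult wild type as 1 group, 44 genes were higher and 13 lower.

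**Figure D2:**
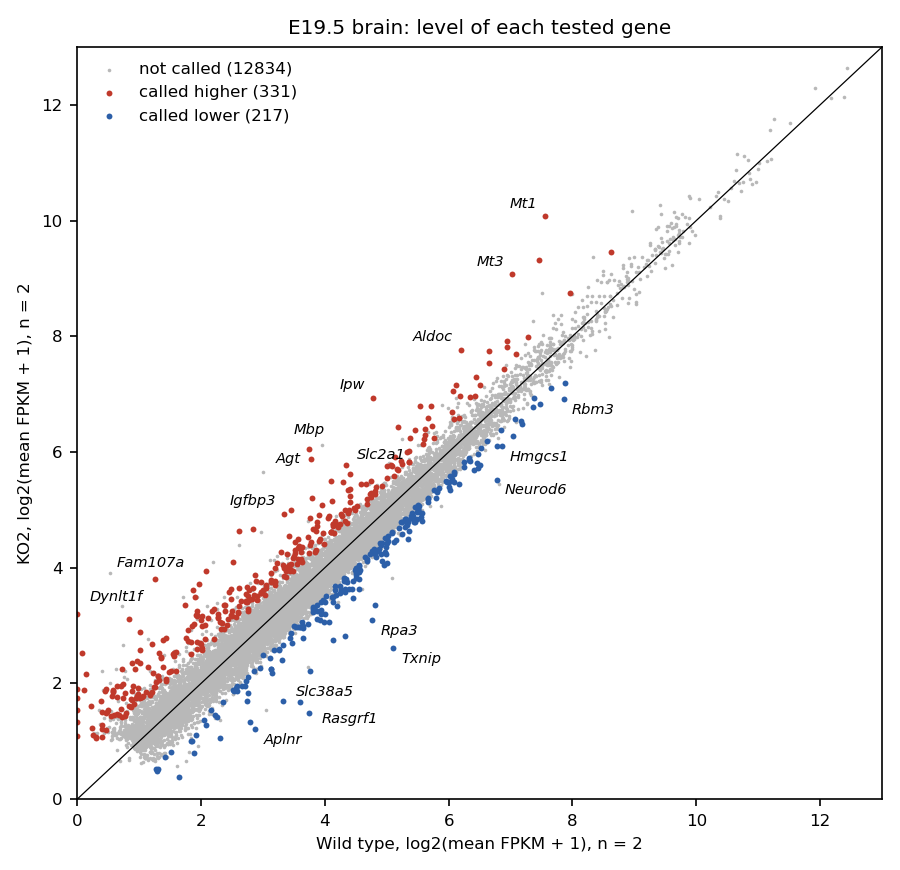
Mean level of each of the 13382 tested genes in E19.5 wild type (horizontal) and KO2 (vertical), both log2(mean FPKM + 1), n = 2 libraries per group, with equal levels on the diagonal. Red points are the 331 genes called higher and blue points the 217 called lower, and most genes lie close to the diagonal across the whole range of levels.

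Fam107a and the metallothioneins were among the largest rises. Fam107a, an actin-associated protein of astrocytes, was at 1.51 and 1.28 FPKM in wild type, against 14.1 and 11.7 in KO2. All 3 metallothioneins with a level above 0, small proteins that bind zinc and copper, were higher. Mt1 was at 180 and 194.8 FPKM in wild type, against 975.2 and 1185 in KO2, a log2 change of 2.51 ± 0.25 (SE, adjusted p = 0.00303). Mt2 was at 187 and 161 FPKM against 578 and 698, and Mt3, the form of the brain, at 121 and 137 against 439 and 637. KO7, the other knockout of this age, was at 241 and 132 FPKM for Mt1, and KO2 was higher than KO7 (adjusted p = 0.00122). Here and below, tests against KO7 use the same 2 KO2 libraries as those against wild type. They are therefore not independent of them. Sepp1, the selenium carrier of plasma (43.5 and 47.4 FPKM against 105 and 115), and Htra1, a secreted protease (9.62 and 10.3 against 30.8 and 30.9), were picked after their values were seen because they passed in every one of the 18 settings tried. Fam107a, Mt1 and Mt2 held without any 1 of the 4 libraries. Sepp1 and Htra1 did so by the way they were picked, since the 18 settings include these leave-outs. Mt3 was lost without wild-type replicate 1 (log2 change 2.03 with it).

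The leading falls were Txnip and Rasgrf1. Txnip, an arrestin-domain protein that restrains glucose uptake and thioredoxin, was at 35.7 and 30.9 FPKM in wild type, against 5.01 and 5.16 in KO2, with KO7 at 28.1 and 21.6. The Txnip log2 change of -2.49 ± 0.14 had the smallest adjusted p of all tested genes (0.00032) and held without any 1 of the 4 libraries. Rpa3, a subunit of the single-strand DNA-binding complex of replication, fell from 28.1 and 24.1 FPKM to 8.003 and 7.02 and also passed in all 18 settings. Slc38a5, a glutamine transporter, fell from 7.88 and 10.2 to 2.13 and 2.38 FPKM, and Pik3r3, a regulatory subunit of PI3-kinase, from 19.95 and 22.1 to 10.7 and 9.55. 6430706D22Rik fell from 12.8 and 12.2 to 3.39 and 3.94 FPKM. RefSeq gives this name as a synonym of Hjurp, a centromere protein gene with a row of its own here, so reads may be split between the rows. Hjurp was at 2.94 and 3.24 FPKM against 2.78 and 2.62 and did not pass. Slc38a5, Pik3r3 and 6430706D22Rik held without any 1 of the 4 libraries. The other leading falls (Npcd, Aplnr, Ccl12, Klf10, Inhba, Gpr21, 9130024F11Rik, C130071C03Rik, LOC100504703 and Neurod6 among them) were lost without wild-type replicate 1.

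**Figure D3:**
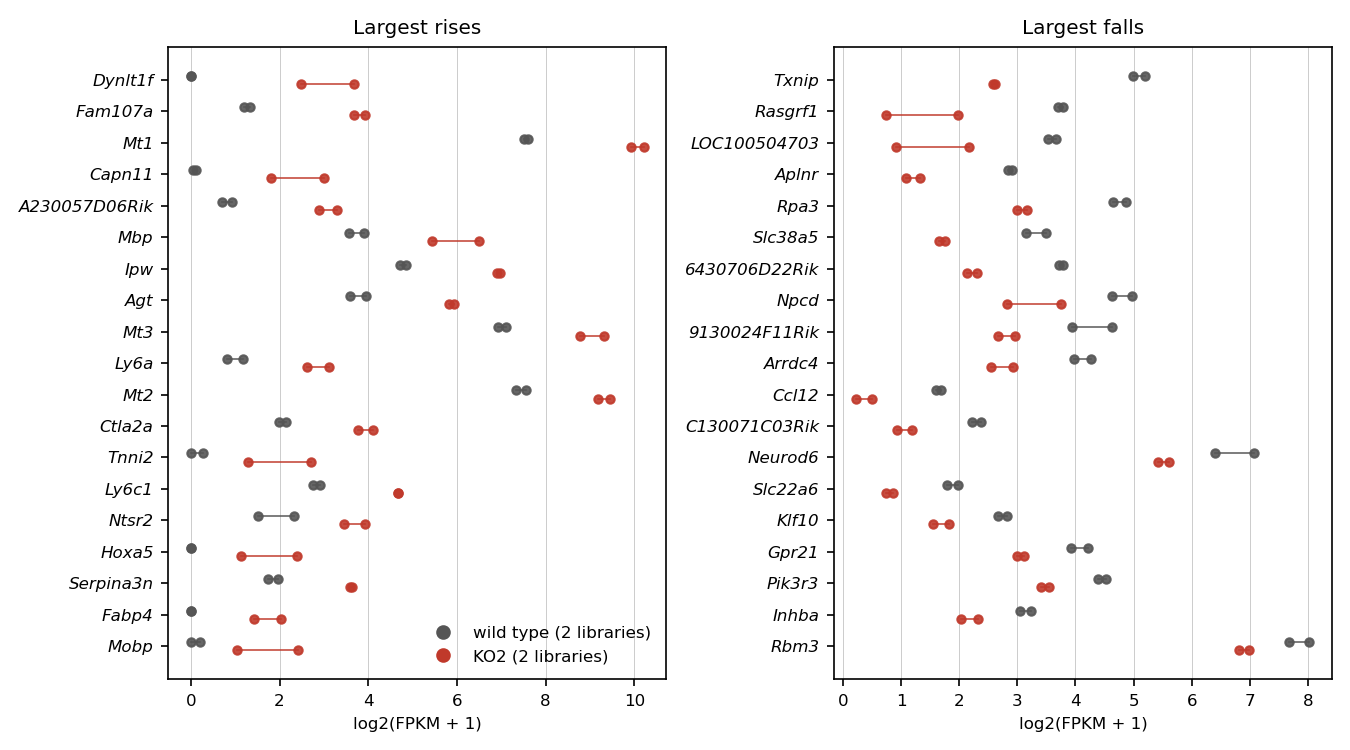
The largest rises (left) and falls (right) named in the text, among called genes with a mean of at least 2 FPKM in 1 group, as log2(FPKM + 1) of each library, with 2 wild-type (grey) and 2 KO2 (red) libraries joined per gene. In none of the genes shown do the groups overlap, and the KO2 pair of Rasgrf1, Capn11 and Npcd is spread wider than that of Txnip or Ipw.

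Dynlt1f, a dynein light chain, had the largest fitted rise, with both wild-type libraries listed at 0 and KO2 at 11.8 and 4.59 FPKM. It is 1 of several near-identical copies, between which the counting may split reads, so its value is uncertain, although its call held without any 1 of the 4 libraries: Dynlt1b was at 15.8 and 14.7 FPKM in wild type, against 12.5 and 12.1 in KO2. Several rises were in genes listed at 0 in wild type and carry no fold. Fabp4, a fatty acid carrier of fat cells and endothelium, was at 3.07 and 1.67 FPKM in KO2, Hoxa5 at 1.19 and 4.28 and Hoxd3 at 1.08 and 2.71, with wild type at 0 in both libraries for each. Hoxd3 was named after its values were seen. Tnni2, a troponin of fast skeletal muscle, was at 0 and 0.215 FPKM in wild type and at 5.51 in KO2 replicate 1 and 1.44 in replicate 2, and its call was lost without KO2 replicate 1 or either wild-type library. Capn11, a calpain protease, was at 0.0291 and 0.0817 FPKM in wild type, against 7.06 and 2.51 in KO2. The calls of Capn11, Fabp4, Hoxa5 and Hoxd3 were lost without wild-type replicate 1.

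The promoters of the leading genes and of the sterol genes described below are shown because they carry the largest changes and because 13 sterol genes fell. The windows are those of RefSeq (GRCm38.p6), 300 bases around the start and mostly before it, 5′ to 3′ on the gene's strand. They are printed with matches to the motifs searched, on both strands, in capitals. For the leading rises and falls these were CCAAT, the hypoxia element core ACGTG, the E-box CACGTG, which holds ACGTG, and the glucocorticoid element core ACANNNTGT. For the sterol genes Idi1 and Hmgcs1 they were CCAAT and the sterol element TCACNCCAC. For Mt1 they were the metal elements TGCACNC and TGCGCNC, chosen after its values were seen. Positions are chr17:6655890-6656189 (minus strand) for Dynlt1f, chr14:8317558-8317857 (minus strand, the first of 3 entries) for Fam107a, chr3:96557707-96558006 for Txnip, chr9:89909525-89909824 for Rasgrf1, chr13:8885356-8885655 for Idi1, chr13:119690101-119690400 for Hmgcs1 and chr8:94178839-94179138 for Mt1, the last 5 on the plus strand.
Dynlt1f: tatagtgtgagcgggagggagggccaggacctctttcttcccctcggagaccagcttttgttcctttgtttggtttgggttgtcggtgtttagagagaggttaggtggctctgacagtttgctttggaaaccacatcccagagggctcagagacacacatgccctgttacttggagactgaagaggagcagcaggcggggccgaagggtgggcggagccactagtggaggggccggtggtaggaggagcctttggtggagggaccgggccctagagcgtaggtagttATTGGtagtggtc
Fam107a: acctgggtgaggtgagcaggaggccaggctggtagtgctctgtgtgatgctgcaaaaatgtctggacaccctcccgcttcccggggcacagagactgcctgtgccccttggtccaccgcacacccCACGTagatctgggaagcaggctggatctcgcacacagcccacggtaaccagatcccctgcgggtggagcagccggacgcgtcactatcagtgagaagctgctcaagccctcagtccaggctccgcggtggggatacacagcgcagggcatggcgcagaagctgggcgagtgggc
Txnip: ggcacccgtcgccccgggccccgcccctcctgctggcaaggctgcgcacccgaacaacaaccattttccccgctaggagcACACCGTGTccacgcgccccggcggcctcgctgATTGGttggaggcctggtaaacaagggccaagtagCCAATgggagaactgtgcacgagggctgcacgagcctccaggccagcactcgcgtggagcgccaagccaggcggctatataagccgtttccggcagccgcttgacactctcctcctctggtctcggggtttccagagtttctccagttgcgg
Rasgrf1: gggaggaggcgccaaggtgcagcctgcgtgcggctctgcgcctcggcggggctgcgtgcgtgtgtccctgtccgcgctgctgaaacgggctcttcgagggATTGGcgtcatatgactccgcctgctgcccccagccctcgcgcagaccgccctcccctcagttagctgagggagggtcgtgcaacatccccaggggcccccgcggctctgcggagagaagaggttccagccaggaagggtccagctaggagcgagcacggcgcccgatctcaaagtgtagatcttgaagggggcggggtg
Idi1: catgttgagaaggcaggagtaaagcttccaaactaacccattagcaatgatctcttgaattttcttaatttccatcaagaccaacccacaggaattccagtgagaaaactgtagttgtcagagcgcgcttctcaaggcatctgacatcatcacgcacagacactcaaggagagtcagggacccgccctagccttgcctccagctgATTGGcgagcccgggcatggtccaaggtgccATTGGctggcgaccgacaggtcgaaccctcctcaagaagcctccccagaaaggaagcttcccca
Hmgcs1: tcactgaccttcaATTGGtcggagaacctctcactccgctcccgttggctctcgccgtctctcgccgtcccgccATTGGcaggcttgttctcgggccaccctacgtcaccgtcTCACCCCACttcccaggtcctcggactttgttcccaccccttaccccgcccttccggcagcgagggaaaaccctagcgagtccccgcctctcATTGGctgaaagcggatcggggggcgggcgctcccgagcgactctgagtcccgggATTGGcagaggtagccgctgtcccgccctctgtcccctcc
Mt1: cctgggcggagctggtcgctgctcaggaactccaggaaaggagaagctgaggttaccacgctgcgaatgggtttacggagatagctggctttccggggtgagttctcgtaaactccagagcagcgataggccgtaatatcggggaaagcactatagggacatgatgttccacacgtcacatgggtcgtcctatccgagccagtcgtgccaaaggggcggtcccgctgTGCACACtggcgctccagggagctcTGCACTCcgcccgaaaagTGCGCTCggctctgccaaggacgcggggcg
A match is a description of letters and not a binding site. The Hmgcs1 window held 4 CCAAT matches and 1 sterol element, that of Idi1 2 CCAAT matches, that of Txnip 2, and that of Mt1 3 metal elements. Of the 25 sterol genes 17 had a window, and 15 of these (88.2%) held CCAAT, against 38.5% of the 10587 windows of tested genes and 37.9% of all 27025. The sterol element was found in 1 of the 17, and in 1.04% of windows of tested genes. CACGTG was found in 10.2% of windows of tested genes, ACGTG in 25.8%, ACANNNTGT in 3.86%, TGCACNC in 13.1% and TGCGCNC in 28.4%.

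Of the 7 tested imprinted genes beside the deleted regions, H19 alone passed. It was at 16.0 and 24.3 FPKM in wild type, against 35.003 and 38.2 in KO2 (log2 change 0.86 ± 0.17, adjusted p = 0.0297), and its call was lost without KO2 replicate 1, KO2 replicate 2 or wild-type replicate 1. Igf2, its paternally read neighbour, was at 37.6 and 65.5 FPKM in wild type, against 35.1 and 38.4 in KO2 (log2 change -0.43 ± 0.21, adjusted p = 0.257). At the IG-DMR cluster Dlk1 was at 3.60 and 4.40 FPKM against 5.69 and 6.19, Dio3 at 2.06 and 1.28 against 2.52 and 2.71, and Rtl1 at 1.76 and 2.57 against 2.41 and 2.90. Meg3 was at 560 and 723 FPKM against 658 and 770, and Rian at 247 and 274 against 251 and 252. None of these 5 passed, with log2 changes from -0.05 to 0.48 and standard errors of 0.15 to 0.22. Mirg was left out by its name and not tested. It was at 8.85 and 10.8 FPKM in wild type, against 22.3 and 17.9 in KO2. In KO7, which keeps the H19-DMR, H19 was at 95.7 and 87.7 FPKM and Igf2 at 108 and 93.6, and KO2 was lower for both (adjusted p = 0.00329 for H19 and adjusted p = 0.00597 for Igf2).

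Few imprinted genes of other clusters were called. Of 22 tested members of a list of paternally expressed genes none passed, and their median change was -0.08, against -0.01 over all tested genes. Single members ranged from -0.64 to 0.70, so the lack of calls does not mean closeness to wild type. This list does not hold Rasgrf1, Ipw or D7Ertd715e, which were called and are given below. Snrpn, a splicing factor subunit, was at 230 and 268 FPKM in wild type, against 203 and 291 in KO2. Mest, a hydrolase of growing tissue, was at 51.6 and 49.8 FPKM against 36.7 and 28.2 (adjusted p = 0.0663), and Ndn, a neuronal growth regulator, at 335 and 369 against 480 and 503 (adjusted p = 0.108). Of 21 maternally expressed genes only the tetraspanin Cd81 passed, from 149 and 160 to 254 and 253 FPKM, and this call was lost whichever of the 4 libraries was left out. Rasgrf1, an activator of Ras signalling with an imprinting control region that KO2 does not lack by its label, fell from 12.03 and 12.7 FPKM to 2.94 and 0.672 (log2 change -2.38 ± 0.32, adjusted p = 0.00865). Rasgrf1 in KO7 was at 8.25 and 8.16 FPKM, and KO2 was lower than KO7 too (adjusted p = 0.00979). The Rasgrf1 call was lost without wild-type replicate 1 and when genes with any value above 0 were tested, and passed in the other 16 of 18 settings.

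Ipw and A230057D06Rik, long non-coding RNAs that RefSeq places on the chromosome of Snrpn, rose. Ipw was at 27.9 and 25.2 FPKM in wild type, against 125 and 118 in KO2, with KO7 at 16.0 and 25.2 (log2 change 2.16 ± 0.18, adjusted p = 0.000944). A230057D06Rik was at 0.637 and 0.914 FPKM in wild type, against 6.39 and 8.87 in KO2 (2.27 ± 0.19, adjusted p = 0.00108). Both held without any 1 of the 4 libraries. In RefSeq Ipw lies inside the span of the long transcript that runs antisense to Ube3a, listed here as D7Ertd715e, so reads of the pair may not be told apart. D7Ertd715e fell, from 12.7 and 10.5 to 6.42 and 5.28 FPKM (log2 change -0.88, adjusted p = 0.0205), and was named after its values were seen; its call was lost without KO2 replicate 2 or wild-type replicate 1. Ube3a, a ubiquitin ligase, was at 23.8 and 24.0 FPKM against 18.8 and 15.9 and missed the threshold (adjusted p = 0.0575).

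Glial genes were among the rises. Of 22 tested astrocyte genes 8 were called higher and none lower, all 22 were above wild type, and their median change was 0.73, against 48% of all tested genes above wild type and a median of -0.01. Agt, angiotensinogen, was at 11.1 and 14.4 FPKM in wild type, against 55.4 and 60.4 in KO2, and Ntsr2, a neurotensin receptor of astrocytes, at 1.84 and 4.01 against 14.2 and 9.98. Aldoc, the aldolase of astrocytes, rose from 65.6 and 79.4 to 212 and 222 FPKM (log2 change 1.57 ± 0.21, adjusted p = 0.00865). Glul, glutamine synthetase, rose from 83.8 and 88.2 to 154 and 159, and Slc1a3, a glutamate transporter, from 65.4 and 65.9 to 104 and 99.6. Slc1a3 was at 65.4 and 60.1 FPKM in KO7, and KO2 exceeded KO7 (adjusted p = 0.00482). In all of these genes the KO2 libraries lay above both wild-type libraries, as in 26.9% of all tested genes. The groups were also apart in each of the 548 called genes, so this adds nothing to a call. The 8 calls became 2 without KO2 replicate 1, 4 without KO2 replicate 2 and 1 without wild-type replicate 1, while the median stayed between 0.62 and 0.88.

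Of 15 tested genes of myelinating oligodendrocytes 7 were higher and none lower (median 0.91), beside 2.47% and 1.62% of all tested genes. Mbp, a main protein of myelin, was at 10.9 and 13.9 FPKM in wild type, against 89.3 and 42.1 in KO2 (log2 change 2.23 ± 0.29, adjusted p = 0.00865). Mobp rose from 0 and 0.149 to 4.34 and 1.062 FPKM, Mal from 0.493 and 0.759 to 3.92 and 1.87, and Bcas1, a gene of newly myelinating cells, from 2.24 and 3.28 to 8.31 and 7.84. Mobp and Mal were below 1 FPKM in both wild-type libraries, so they entered through KO2 only and could only lie above wild type. In Mbp, Mobp and Mal, KO2 replicate 1 was the higher of the KO2 pair. Of 13 genes of oligodendrocyte precursors none passed and the median was 0.08. Gpr17, a receptor of cells between precursor and myelin stage, was at 4.93 and 6.92 FPKM against 15.1 and 9.44 (adjusted p = 0.0556), and Sox10 at 6.18 and 7.12 against 9.38 and 9.996. The 7 myelin calls became 2 when KO2 replicate 1 was left out, 0 for wild-type replicate 1 and 3 for wild-type replicate 2. Midbrain and hindbrain markers were also lowest in wild-type replicate 1 (6.41 FPKM), and their part in the glial rises was not tested.

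Among 16 tested genes of microglia and macrophages 4 were higher and none lower, beside 2.47% and 1.62% of all tested genes. The median of the microglial list was 0.14. The complement subunit C1qb rose from 11.7 and 13.5 to 24.9 and 31.2 FPKM (log2 change 1.09 ± 0.13, adjusted p = 0.00747). C1qa rose from 9.43 and 9.57 to 18.6 and 17.0, the lipid receptor Trem2 from 3.26 and 3.35 to 7.23 and 8.18, and Tmem119 from 0.932 and 1.23 to 2.38 and 2.47. No microglial gene was called without wild-type replicate 1, and 1 without either KO2 library. Of 8 tested acute inflammation genes 2 were higher: Cebpd, a transcription factor (1.02 and 0.788 against 3.69 and 3.802 FPKM), and the iron-siderophore carrier Lcn2 (0.346 and 0.635 against 3.48 and 1.81). Serpina3n, a protease inhibitor of reactive astrocytes, rose from 2.36 and 2.92 to 11.4 and 10.9 FPKM (log2 change 1.75 ± 0.21, adjusted p = 0.00813). Of 11 interferon and MHC genes 2 passed, Isg15 (0.758 and 0.941 against 5.19 and 3.07 FPKM) and B2m (28.2 and 30.2 against 41.1 and 42.2). KO7 was at 4.27 and 3.44 FPKM for Isg15, and the difference of KO2 from KO7 did not pass (0.05 ± 0.21, adjusted p = 0.891). Cebpd, Lcn2, Serpina3n, Isg15 and B2m were each lost without wild-type replicate 1.

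**Figure D4:**
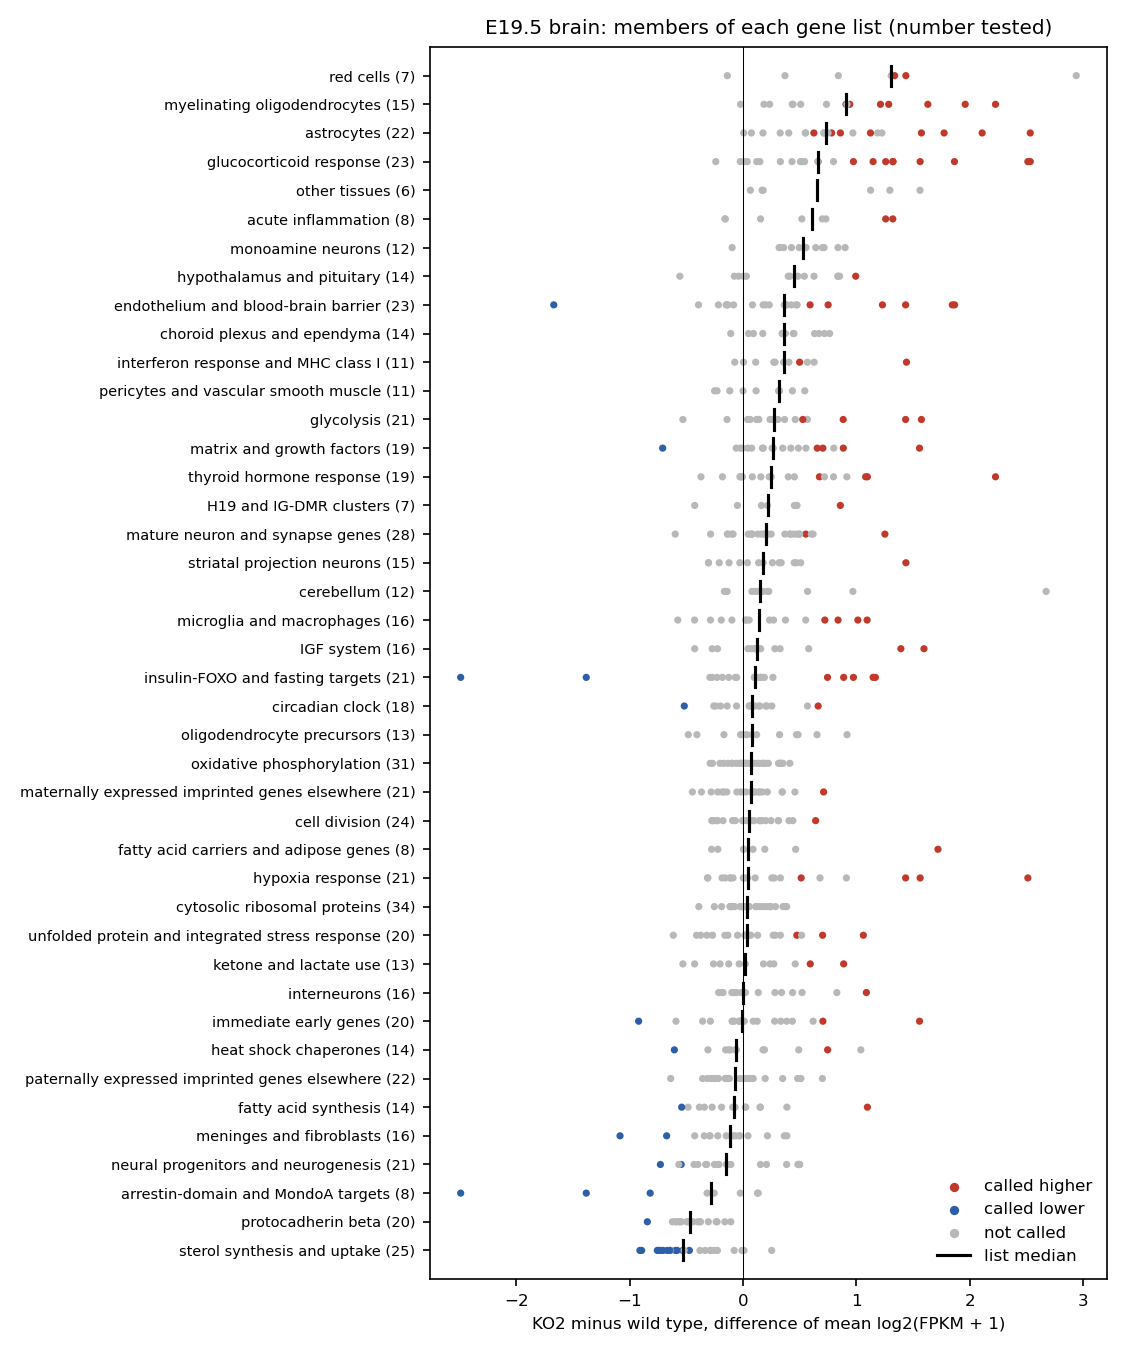
Change of each tested member (points) of 42 gene lists in E19.5 KO2 against wild type, as the difference of mean log2(FPKM + 1), with the list median as a black bar and the number of tested members in brackets. Red and blue points passed the test, the red cell list (median 1.31) lies farthest to the right, before the myelin (0.91), astrocyte (0.73), glucocorticoid (0.66), other-tissue (0.65), acute inflammation (0.61) and monoamine neuron (0.53) lists, and the sterol and protocadherin beta lists to the left.

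Vascular genes moved in both directions. Of 23 tested genes of endothelium and the blood-brain barrier 6 were higher and 1 lower, with a median of 0.36. Ly6c1, a surface protein of endothelium, rose from 5.75 and 6.50 to 24.6 and 24.6 FPKM (log2 change 1.85 ± 0.21, adjusted p = 0.00602), and Ly6a from 0.762 and 1.26 to 7.62 and 5.15. Slc2a1, the glucose transporter of the barrier, rose from 18.5 and 20.2 to 54.2 and 53.6 FPKM. KO7 was at 63.7 and 51.6 FPKM for Slc2a1, and the difference of KO2 from KO7 did not pass (-0.09 ± 0.12, adjusted p = 0.66). Aplnr, the apelin receptor of growing vessels, fell from 6.48 and 6.15 to 1.499 and 1.11 FPKM. The tight junction gene Cldn5 was at 43.5 and 46.1 FPKM against 54.1 and 51.4 and did not pass (adjusted p = 0.279). Ctla2a, a protease inhibitor, rose from 2.98 and 3.42 to 12.6 and 16.2 FPKM and held without any 1 of the 4 libraries, as Ly6c1 and Slc2a1 did. Without wild-type replicate 1 the list had 2 members higher and none lower, and without either KO2 library or wild-type replicate 2 it had 4 higher and 1 lower. None of 11 genes of pericytes and vascular smooth muscle and none of 14 of choroid plexus and ependyma passed. Ttr, the thyroxine carrier of choroid plexus, was at 879 and 499 FPKM against 1326 and 897. Of 16 meningeal genes 2 were lower, Slc22a6, an anion transporter (2.48 and 2.93 against 0.671 and 0.815 FPKM), and Ogn, a proteoglycan (3.83 and 4.38 against 2.44 and 1.96), and both were lost without wild-type replicate 1.

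Of 16 tested genes of the insulin-like growth factor system 2 were higher and none lower, with a median of 0.12. Igfbp3, the main carrier of plasma, rose from 9.89 and 8.34 to 27.9 and 31.2 FPKM (log2 change 1.60 ± 0.12, adjusted p = 0.00086). Igfbp7, a related protein of the vessel wall, rose from 16.2 and 16.0 to 44.4 and 43.5 (1.39 ± 0.10, adjusted p = 0.00086). Both passed in all 18 settings, and none of the other 14 tested members, Igf2 and the other binding proteins among them, passed. KO2 exceeded KO7 in Igfbp3 (12.3 and 12.2 FPKM, adjusted p = 0.00122) but the difference missed the threshold in Igfbp7 (39.2 and 33.5 FPKM, difference 0.27 ± 0.10, adjusted p = 0.118). Of 19 genes of matrix and secreted growth factors 4 were higher and 1 lower. Ctgf, a matrix growth factor that also counts among immediate early genes, rose from 5.12 and 4.35 to 13.4 and 18.7 FPKM and passed in all 18 settings. Sparcl1 rose from 103 and 142 to 228 and 219 FPKM and Sparc from 80.6 and 99.5 to 146 and 137, while the matrix protein Tnc fell from 36.9 and 42.8 to 25.3 and 22.6. Without wild-type replicate 1 or either KO2 library, 1 gene of this list stayed higher and none lower.

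Genes that respond to glucocorticoids were also among the rises. Of 23 tested members 10 were higher and none lower (median 0.66), beside 2.47% and 1.62% of all tested genes. In adult KO2 against the first adult wild-type set the median of this list was 0.63, beside 0.04 over all tested genes. The like medians do not mean that the same members rose. The E19.5 log2 effect exceeded the adult effect for Fam107a (by 2.38), Mt1 (2.68) and Mt2 (1.42). For Sgk1 and Fkbp5 the E19.5 effect was the lower (differences -1.81 and -0.74). At E19.5 Fam107a, Mt1, Mt2 and Lcn2 given above were among the 10. Hif3a, of the hypoxia-inducible factor family, went from 1.14 and 0.907 to 5.198 and 4.76 FPKM (log2 change 1.56 ± 0.14, adjusted p = 0.00173) and held without any 1 of the 4 libraries. Per1, a clock gene that glucocorticoids also raise, rose from 8.31 and 7.23 to 12.8 and 12.9. The widely used markers Fkbp5 and Tsc22d3, named after their values were seen, did not pass (log2 changes 0.04 and 0.51). Sgk1, a kinase of this response, was at 16.8 and 15.6 FPKM in wild type, against 16.2 and 20.1 in KO2. The 10 calls became 6 and 8 when KO2 replicate 1 or 2 was left out, and 4 and 8 when wild-type replicate 1 or 2 was. Among 19 thyroid hormone response genes 4 were higher, Mbp among them, with Thrsp, a regulator of fat synthesis, from 3.31 and 2.66 to 7.34 and 7.67 FPKM and Crym, a thyroid hormone-binding protein, from 32.6 and 33.3 to 54.5 and 51.9. Each was lost without wild-type replicate 1.

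Genes of sterol synthesis were among the falls. Of 25 tested genes of sterol synthesis and uptake 13 were lower and none higher, 23 lay below wild type against 52% of all tested genes, and the median was -0.53. Hmgcs1, which makes the precursor HMG-CoA, fell from 114 and 115 to 64.5 and 70.9 FPKM (log2 change -0.76 ± 0.11, adjusted p = 0.0097). Idi1, an isomerase of isoprenoid units, fell from 32.7 and 27.5 to 15.4 and 15.6 (-0.91 ± 0.11, adjusted p = 0.00859). Sqle, the squalene oxygenase, fell from 74.4 and 67.9 to 41.4 and 43.5, and Nsdhl, a sterol dehydrogenase, from 31.3 and 29.9 to 16.7 and 19.01. In these 4 genes both KO2 libraries lay below both wild-type libraries, as in every gene called lower and in 31.1% of all tested genes. KO2 was below KO7 as well (adjusted p = 0.00155 to 0.0431). The 13 calls became 2 and 5 when KO2 replicate 1 or 2 was left out, 8 for wild-type replicate 2 and 0 for wild-type replicate 1, where the median was -0.48. Of 14 genes of fatty acid synthesis Elovl6, an elongase, was lower (19.47 and 18.1 against 12.9 and 12.3 FPKM) and Thrsp higher. Acly and Acaca, which supply the building blocks, missed the threshold (adjusted p = 0.0819 and 0.066).

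Further genes of the arrestin-domain family fell beside Txnip. Of 8 tested arrestin-domain genes and targets of the glucose-sensing factor MondoA, 3 were lower and none higher. Arrdc4 was at 18.3 and 14.7 FPKM in wild type, against 4.84 and 6.61 in KO2, with KO7 at 18.8 and 13.6 (log2 change -1.38 ± 0.19, adjusted p = 0.00865). Arrdc3 fell from 21.8 and 19.6 to 9.82 and 12.9 FPKM. Arrdc4 and Arrdc3 were lost without wild-type replicate 1, and Arrdc3 also without KO2 replicate 1. Of 21 glycolysis genes 4 were higher and none lower (median 0.27): Aldoc and Slc2a1 given above, Gpi1, glucose phosphate isomerase (92.5 and 107 against 180 and 189 FPKM), and Pgam1, a mutase (80.3 and 90.5 against 116 and 131). The glycolysis count was 1 without wild-type replicate 1 and 2 without either KO2 library. Of 21 targets of insulin-FOXO signalling and fasting 5 were higher and 2 lower, the 2 being Txnip and Arrdc4. The factor Klf15 rose from 3.88 and 5.29 to 10.8 and 12.1 FPKM, and it was lost without wild-type replicate 1. Of 21 hypoxia genes 4 were higher, Mt1, Hif3a, Slc2a1 and Vegfa (17.1 and 15.2 against 24.98 and 21.9 FPKM), and the median of this list was 0.04. Vegfa was lost whichever of the 4 libraries was left out.

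Genes of neurons and their progenitors gave calls in both directions. Of 28 genes of mature neurons and synapses 2 were called higher and 22 lay above wild type, with a median of 0.20. Over all tested genes 2.47% were called higher, 1.62% were called lower and 48% lay above wild type. Thy1, a surface protein, rose from 34.2 and 36.2 to 77.0 and 94.4 FPKM (log2 change 1.25 ± 0.17, adjusted p = 0.00865), and Snap25, a release protein, from 110 and 125 to 167 and 179. Of 21 progenitor and neurogenesis genes 2 were lower, with a median of -0.15: Sox11, a factor of newborn neurons (99.7 and 76.1 against 50.9 and 53.4 FPKM), and Nes, a filament of progenitors (11.01 and 10.03 against 7.18 and 6.60). Dcx, a microtubule protein of migrating neurons, was at 181 and 146 FPKM against 114 and 105 (adjusted p = 0.0688). Of the 15 genes of cortical projection neurons, a list made after the values were seen, 4 were lower and all 15 lay below wild type. Neurod6, a factor of these neurons, was at 133 and 83.9 FPKM in wild type, against 41.9 and 47.9 in KO2, with KO7 at 86.0 and 91.8, and KO2 was below KO7 (adjusted p = 0.0149). Zbtb18 fell from 149 and 111 to 76.5 and 76.1 FPKM and Pou3f2 from 12.1 and 11.04 to 7.28 and 6.68. The cortical list was highest in wild-type replicate 1 (757 FPKM), and none of the called genes just named, from Thy1 to Pou3f2, passed without it.

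Transmitter and peptide genes gave single calls. Cck, a peptide of interneurons, rose from 50.9 and 52.0 to 110 and 111 FPKM and was the only 1 of 16 interneuron genes to pass. Penk, enkephalin of the striatum, rose from 16.3 and 9.48 to 31.4 and 40.0 and was 1 of 15 striatal genes. Oxt, oxytocin, rose from 5.72 and 6.96 to 12.9 and 14.3, with KO7 at 0.794 and 1.17, and was 1 of 14 genes of hypothalamus and pituitary. None of 12 monoamine and 12 cerebellar genes passed. Without wild-type replicate 2 these counts were 8 and 2 higher, with a monoamine median of 1.26, and without wild-type replicate 1 they were 0 and 0, with a median of -0.02. Pcp2, of Purkinje cells, was at 0 and 1.30 FPKM in wild type, against 6.26 and 11.9 in KO2 (adjusted p = 0.0706). Cck, Penk and Oxt were each lost without wild-type replicate 1. Gng13, a G protein subunit (2.56 and 2.87 against 10.2 and 10.2 FPKM), and Tac2, a tachykinin (1.49 and 1.11 against 6.15 and 4.62), named after their values were seen, held without any 1 of the 4 libraries. The beta protocadherins are adhesion proteins that give neurons an identity on their surface. They lay below wild type in 20 of 20 tested members (median -0.47), beside 52% of all tested genes. Of the 20, 1 was called lower, beside 1.62% of all tested genes: Pcdhb16 fell from 4.10 and 3.48 to 1.86 and 1.48 FPKM. KO7 was at 1.10 and 1.86 FPKM for Pcdhb16, and the call was lost whichever of the 4 libraries was left out.

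Stress and activity genes gave single calls in both directions. Of 20 unfolded protein and integrated stress response genes 3 were higher: Chac1, which breaks down glutathione (3.86 and 3.19 against 6.88 and 10.3 FPKM), Ddit3 (11.03 and 9.56 against 15.8 and 18.997) and Atf4 (52.8 and 54.0 against 72.8 and 76.3). Of 20 immediate early genes Egr1 was lower, from 15.8 and 13.98 to 6.72 and 8.07 FPKM, with KO7 lower still at 3.92 and 4.51, while Ctgf and Cyr61 were higher. Among 14 heat shock chaperones Dnaja1 was lower (63.4 and 62.4 against 42.0 and 40.0 FPKM) and Bag3 higher. Rbm3, an RNA-binding protein that cold induces, fell from 259 and 203 to 112 and 126 FPKM (log2 change -0.94 ± 0.14, adjusted p = 0.0113). Cirbp, its relative and named after its values were seen, fell from 247 and 224 to 126 and 165. KO7 was at 142 and 135 FPKM for Rbm3, and its difference from KO2 missed the threshold (adjusted p = 0.33). These calls were lost without wild-type replicate 1, Ctgf excepted.

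None of 34 cytosolic ribosomal protein genes and none of 31 oxidative phosphorylation genes passed, with medians of 0.04 and 0.07. Rpl41, the gene with the highest mean level in KO2, was at 5540 and 5482 FPKM in wild type, against 6127 and 6559 in KO2. Of 24 cell division genes 1 was higher, Ube2c, a ubiquitin-conjugating enzyme of mitosis (9.35 and 8.99 against 13.95 and 15.8 FPKM), lost whichever of the 4 libraries was left out. The red cell list had the highest median of all lists (1.31). Beside 48% of all tested genes, 6 of its 7 tested genes lay above wild type. Of these 2 were called higher, among them Slc4a1, the anion exchanger (0.156 and 0.578 against 2.71 and 2.61 FPKM), and both were lost without wild-type replicate 1 or either KO2 library, while 4 red cell genes passed without wild-type replicate 2. Slc4a1 was below 1 FPKM in both wild-type libraries, so it entered through KO2 only and could only lie above wild type. The count and median of the red cell list rest in part on it. None of 6 tested marker genes of other tissues passed. Beside 48% of all tested genes, all 6 lay above wild type (median 0.65). The muscle genes Mylpf and Tnnt3 among them were below 1 FPKM in both wild-type libraries. They entered through KO2 only and could only lie above wild type, so nothing is read from this count. Acta1, skeletal actin, also 1 of the 6, was at 5.36 and 4.91 FPKM in wild type, against 30.7 and 9.34 in KO2, with the higher value in KO2 replicate 1.

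In adult brain with the same deletions 41 genes were called. Adult KO2 and adult wild type of the first set share no library with the E19.5 groups. The 41 calls come from a fit of 10 libraries (0.306% of 13382 genes), in which 702 genes were called at E19.5, against 548 in the fit of 6 libraries. The fit of 10 libraries takes its estimate of spread from the E19.5 libraries too. Calls at the 2 ages are therefore not independent, and a call at both is more likely. Of the 548, 9 were called in adults too. They were 1.64% of the E19.5 calls, beside 0.306% of all genes, and 22% of the adult calls, beside 4.1% of all genes. Of these, 7 went the same way: Rasgrf1, 6430706D22Rik, Ipw, A230057D06Rik, Serpina3n, 2900052N01Rik and Lpin2. The E19.5 call of 2900052N01Rik held without any 1 of the 4 libraries. Ipw was at 17.4 and 24.1 FPKM in adult wild type and 122 and 120 in adult KO2, and Rasgrf1 at 89.5 and 100 against 19.7 and 14.8. The difference between the E19.5 and the adult effect was -0.34 for Ipw and 0.02 for Rasgrf1, and neither passed (adjusted p = 0.472 for Ipw and adjusted p = 0.983 for Rasgrf1). Txnip and Dusp4, a phosphatase, went opposite ways: Txnip was at 5.61 and 6.98 FPKM in adult wild type and 12.2 and 13.2 in adult KO2.

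The effect of KO2 differed between the ages in 371 genes (2.77%), with the E19.5 effect higher in 142 (1.06%) and lower in 229 (1.71%). With quantile scaling the split was 224 and 158 and with median-of-ratios scaling 165 and 99, so the direction of the excess depends on scaling. On the log2 scale the difference was -3.41 ± 0.20 (SE) for Txnip, 2.38 ± 0.29 for Fam107a, 2.70 ± 0.29 for Mt3, 1.46 ± 0.18 for Igfbp3 and -0.75 ± 0.13 for Hmgcs1. In adults Fam107a was at 104 and 78.7 FPKM in wild type, against 109 and 93.4 in KO2, and Hmgcs1 at 41.5 and 44.3 against 41.0 and 44.6. Mbp was at 1542 and 1972 FPKM in adult wild type and 1255 and 1917 in adult KO2, and the effects on Mbp differed by 2.40 ± 0.45 (adjusted p = 0.0359). Without wild-type replicate 1 of E19.5, 1 gene passed this test, and leaving out other single libraries gave 15 to 124.

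**Figure D5:**
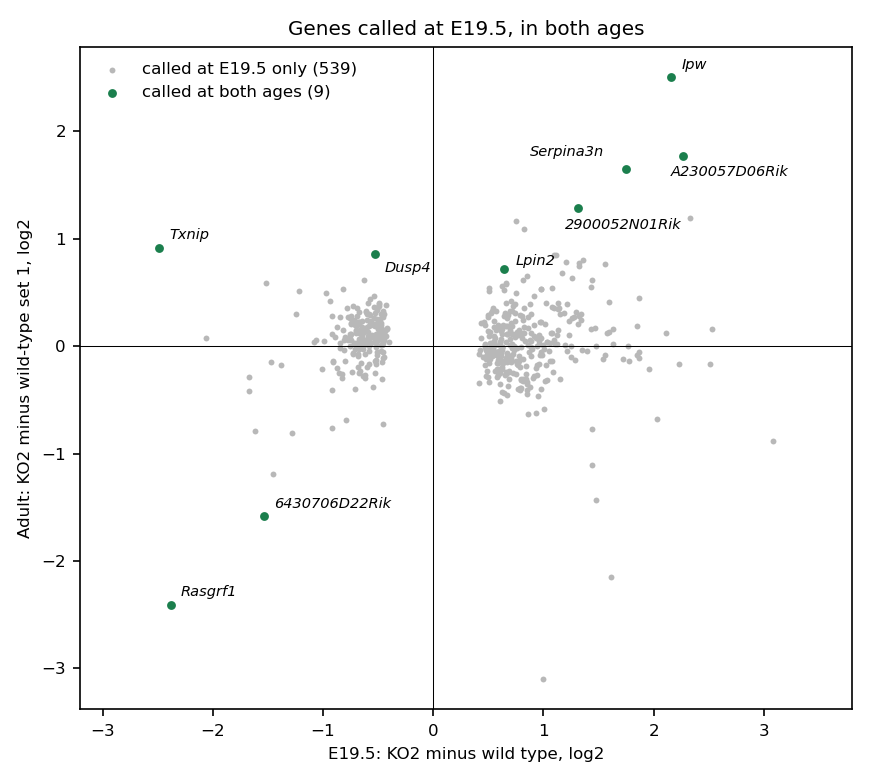
Change of the 548 genes called in E19.5 KO2 at E19.5 (horizontal) and in adult KO2 against the first adult wild-type set (vertical), both as differences of mean log2(FPKM + 1). The 9 genes called at both ages are green and named, 7 of them in the lower left or upper right, and most grey points lie near 0 on the vertical axis.

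Set directly against the other knockout of the same age, KO2 was higher than KO7 in 775 genes (5.79%) and lower in 878 (6.56%), together 12.4% of 13382, a comparison that uses no wild-type mean. The number was 529 or 563 when KO2 replicate 1 or 2 was left out, and 564 or 1512 for KO7 replicate 1 or 2. Eif2s3y, a Y-linked gene, was at 22.6 and 25.03 FPKM in KO7 and listed at 0 in both wild-type libraries and at 0 and 0.0274 FPKM in KO2, so sex and deletions cannot be told apart in this test. Txnip (5.01 and 5.16 against 28.1 and 21.6 FPKM, adjusted p = 0.000317), Fam107a (14.1 and 11.7 against 3.18 and 1.72, adjusted p = 0.00136), Mt2 (578 and 698 against 177 and 109, adjusted p = 0.00122) and Hmgcs1 (64.5 and 70.9 against 133 and 147, adjusted p = 0.00155) differed from KO7 in the direction in which they differed from wild type. The test against KO7 shares the 2 KO2 libraries and the estimate of spread with the test against wild type. Sameness of direction is therefore more likely, and nothing is read from it. Slc2a1, Igfbp7, Isg15, Hif3a and Rbm3 did not pass against KO7 (adjusted p = 0.118 to 0.891).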

How the data were processed

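Poly(A) RNA of brain was sequenced in 14 libraries. The deposited table gives FPKM values for each gene and library. Per the submitters' processing notes, the tools were Cufflinks 2.2.1, TopHat2 2.1.1 and CASAVA, with mm9 as the mouse build; their roles and order are not given, and the use of strand is not given in the sources used here. All columns were taken as FPKM and used as deposited. Of 23377 rows, 2 named no gene and 733 were left out by their names (Mir, Snor, Scarna). Symbols were matched to RefSeq (GRCm38.p6) for names, synonyms and promoters only, and 47 of the 13382 tested genes had no match.

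The test was limma 3.58.1 in R 4.3.3 (two-sided, empirical Bayes with trend) on log2(FPKM + 1), with Benjamini-Hochberg adjustment over all 13382 genes and a threshold of 0.05. The 6 E19.5 libraries shared 1 estimate of spread (3 residual degrees of freedom). The difference between ages used 10 libraries, all E19.5 libraries with adult KO2 and the first adult wild-type set (5 residual degrees of freedom). Tested on simulated data for E19.5 KO2 against wild type over 13382 genes with 200 changed, the test recovered 0% of changes of 0.5 (log2), 71% of changes of 1 and 95.9% of changes of 2. Mean false calls were 0, 5.4 and 7.6. The adjusted threshold depends on how many genes change, and 548 were called in the data, some with changes under 0.5 (Atf4, 0.47). The simulated shares therefore do not carry over to the data. Whole reads could not be recovered across groups, so no count test was run.

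Genes were named by a rule: all tested members of the H19 and IG-DMR and sex-linked lists, Rasgrf1, the 20 largest rises and falls among called genes reaching a mean of 2 FPKM in 1 group, the 4 members of each list with the smallest p, the 10 genes with the highest KO2 mean, and the 5 largest differences between ages in each direction. Not every gene so named is described, and some are not reported here. The groups compared, the gene lists and this rule were chosen with earlier results of these data known. Lists of regions, muscle, metallothioneins and cold-inducible proteins, the metal elements, and genes outside the rule (Sepp1, Htra1, Hjurp, Dynlt1b, Hoxd3, D7Ertd715e, Cldn5, Fkbp5, Tsc22d3, Gng13, Tac2, Cirbp and En1 among them) were chosen after the values were seen. Alternatives were the pseudocount, the filter, the scaling, the trend, a replicate block, each left-out library and the libraries in the fit.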

Additional observations from a re-analysis of the deposited data

Results flagged for a closer look

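The effect of KO2 differed between E19.5 and adult brain, by an interaction term in limma with Benjamini-Hochberg adjustment over 13382 genes, for 48 of the 133 genes named, beside 371 of all 13382 genes (2.77%). The genes named were chosen in part for this difference, so nothing is read from the first count. Values are the E19.5 effect minus the adult effect on the log2 scale, with 2 libraries in each of the 4 groups. The difference was below 0 for Txnip (-3.41), Npcd (-2.10), Sgk1 (-1.81), C130071C03Rik (-1.54), Dusp4 (-1.39), Aplnr (-1.39), Rbm3 (-1.36), Arrdc3 (-1.35), Rpa3 (-1.25), Arrdc4 (-1.21), Slc22a6 (-1.12), Pik3r3 (-1.04), Dnaja1 (-0.94), Ube3a (-0.80), Pou3f2 (-0.77) and Fkbp5 (-0.74). It was also below 0 for the lipid synthesis genes Nsdhl (-0.95), Idi1 (-0.76), Hmgcs1 (-0.75), Elovl6 (-0.75) and Sqle (-0.66).

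The difference was above 0 for the astrocyte and myelin genes Mbp (2.40), Fam107a (2.38), Ntsr2 (1.91), Aldoc (1.46), Bcas1 (1.42), Gpr17 (1.36) and Slc1a3 (0.76), and for the metallothioneins Mt3 (2.70), Mt1 (2.68) and Mt2 (1.42). Among vascular and secreted genes it was above 0 for Ctla2a (1.92), Fabp4 (1.84), Ly6c1 (1.66), Htra1 (1.66), Ctgf (1.64), Igfbp3 (1.46), Igfbp7 (1.44), Cldn5 (1.34), Sepp1 (1.00) and Slc2a1 (0.89). The remaining values were those of Penk (2.54), H19 (1.49), Thy1 (1.36), Chac1 (1.20), C1qa (1.10), Ube2c (1.07) and C1qb (1.04). Txnip was lower in KO2 at E19.5 and higher in adult KO2, and each was called. Sgk1 was at 17.3 and 16.5 FPKM in adult wild type and 63.4 and 73.8 in adult KO2. The count of such genes fell to 1 of 13382 without E19.5 wild-type replicate 1.

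Mirg, a host RNA of microRNAs in the IG-DMR cluster, was not tested because its name begins with Mir. Its mean was 20.1 FPKM in E19.5 KO2 (22.3 and 17.9) and 9.83 in wild type (8.85 and 10.8), and KO7 was at 14.02 and 20.5.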

How the results depend on the processing

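Of 1849 alternative values of the 104 called genes named, 1378 stayed past the threshold, 471 did not, and none changed sign. Without E19.5 wild-type replicate 1, 23 of the 104 stayed past it. The number of genes called in KO2 against wild type (548) was 61 with any gene above 0 in 2 libraries, 57 with 14 libraries and adult wild type as 1 group, 209 with the adult sets apart, and 28 to 293 with 1 E19.5 KO2 or wild-type library left out (684 and 691 without a KO7 library). The number whose effect differed between ages (371) was 164 without the filter, 151 without the trend, 382 with quantile scaling, and 1 to 124 with 1 library left out. The share with the higher E19.5 effect was 38.3%, against 58.6% with quantile and 62.5% with median-of-ratios scaling. The number called against KO7 (1653) was 928 without the filter and 529 to 1512 with 1 library left out. The cause of these shifts was not tested, except that a left-out library leaves fewer samples, with the lone library assumed to vary like the other groups. Scaling moved the median of all genes to -0.02 (quantile) and 0.00208 (median-of-ratios). Among genes not called, the log2 change turned sign with 1 library left out for Snrpn (from -0.2874 to 0.227, and 0.08134 without wild-type replicate 2), Meg3 (-0.0224 to 0.3463), Rian (-0.1234 to 0.02352), En1 (-0.787 to 1.779), En2 (-0.5821 to 1.72) and Fkbp5 (-0.02287 to 0.09627, and -0.01129 without KO2 replicate 1). Of 43 list medians, 14 changed sign under some alternative.

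With the replicate number as a block, 383 genes were called in KO2 against wild type, 156 for the difference between ages and 1261 against KO7. The labels do not tie the numbers to an animal, litter or day, so they were not taken as pairs. Across genes, deviations of same-numbered libraries correlated at -0.0501 for E19.5 KO2 with wild type and -0.138 with KO7, but at 0.329 for adult KO2 with adult wild type, 0.216 for E19.5 with adult wild type and 0.21 for E19.5 wild type with adult KO2, groups that enter the test between ages. Absolute depth is unknown, so the precision of low values cannot be given.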
